A study of Mus musculus with 4 samples.

Results

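Nrf2, encoded by Nfe2l2, is the transcription factor that switches on much of the cell's antioxidant and detoxification program. Under basal conditions Keap1 holds Nrf2 and presents it to a Cul3 ubiquitin ligase for destruction, and oxidants or electrophiles that modify Keap1 let Nrf2 build up, enter the nucleus, pair with a small Maf protein and bind antioxidant response elements. Aminoglycosides such as gentamicin raise reactive oxygen species in cochlear hair cells, so the classic Nrf2 targets are a natural readout of whether that stress reached the transcriptome. The 10 genes described here are Nfe2l2, Keap1 and 8 textbook targets, namely Hmox1, Nqo1, Gclc, Gclm, Txnrd1, Srxn1, Slc7a11 and Gsr. They were picked by gene symbol from 23420 genes in the deposited tables, without use of their values but with earlier results of these data known.

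The libraries came from cochleae of postnatal day 1 mice on a CD1 background that carried an Atoh1-GFP transgene, which labels hair cells. All cochleae were cultured overnight with 5% oxygen and 100 U/ml penicillin. Gentamicin at 0.5 mM was then added for 3 h to the treated cultures only. After dissociation, brightly GFP-positive cells were sorted as hair cells (HC) and GFP-negative cells as non-hair cells (NHC), giving 4 groups with 3 replicates each. The hair cell gate left out dim GFP cells, and the non-hair cell gate took in supporting cells of the sensory epithelium together with the tissue around it, so the latter is a mixture and no single cell type. How many animals stand behind a replicate is not given in the sources used here. In such sorted bulk samples, fewer cells of a type and less RNA per cell cannot be told apart.

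Values are the normalized read numbers of the deposited tables, which are reads scaled between replicates with 1 added, so that a gene with no read has the value 1. They rest on 22400402 to 28151968 recovered reads per replicate. All 10 genes passed the minimum of 100 reads over the 12 replicates, as did 16077 genes in all. The summed level of 6 hair cell markers (Atoh1, Myo6, Myo7a, Gfi1, Otof and Pvalb) ran from 1.04e4 to 1.09e4 in control hair cells, from 8722 to 9708 in treated hair cells and from 229 to 301 in non-hair cells, so the hair cell markers followed the sort labels. None of these 6 markers passed the test between treated and control hair cells. Another list of 22 markers, for mesenchyme, endothelium, Schwann cells, macrophages and melanocytes, summed to between 676 and 947 in control hair cells, to between 443 and 554 in treated hair cells and to between 5849 and 9982 in non-hair cells. No analysed marker of any listed cell type lacked reads in all 3 replicates of a hair cell group. Of the erythroid markers, 1 had under 3 reads in every control hair cell replicate.

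The windows before 3 of these genes are shown because they hold the core of the antioxidant response element, TGACNNNGC, searched on both strands (GCNNNGTCA on the other). Sequences are the 250 bases before a RefSeq transcript start on GRCm38.p6, written 5′ to 3′ along the gene, with the match in capitals. Nfe2l2 (chr2:75704664-75704913, minus strand) has its match 240 to 232 bases before the start, Gclm (chr3:122245307-122245556, plus strand) 134 to 126 bases before it, and Txnrd1 (chr10:82858956-82859205, plus strand, the second of its listed starts) 92 to 84 bases before it.
Nfe2l2: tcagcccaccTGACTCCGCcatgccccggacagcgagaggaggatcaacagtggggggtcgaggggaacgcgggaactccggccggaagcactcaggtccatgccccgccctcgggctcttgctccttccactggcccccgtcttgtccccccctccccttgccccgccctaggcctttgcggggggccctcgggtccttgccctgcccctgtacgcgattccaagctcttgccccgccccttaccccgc
Gclm: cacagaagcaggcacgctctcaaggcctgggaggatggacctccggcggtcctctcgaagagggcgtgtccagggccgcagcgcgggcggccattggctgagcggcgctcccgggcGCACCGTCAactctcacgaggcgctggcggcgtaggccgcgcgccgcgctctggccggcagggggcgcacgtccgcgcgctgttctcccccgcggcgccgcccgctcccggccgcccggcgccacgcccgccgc
Txnrd1: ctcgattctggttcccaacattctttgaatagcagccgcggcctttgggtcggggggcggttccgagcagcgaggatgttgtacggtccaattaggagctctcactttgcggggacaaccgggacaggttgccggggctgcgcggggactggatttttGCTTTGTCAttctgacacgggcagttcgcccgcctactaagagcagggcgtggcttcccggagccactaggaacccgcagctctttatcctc
The 7 genes with a listed window (these 3, Keap1, Nqo1, Srxn1 and Slc7a11) have 9 windows in all, since Txnrd1 has 3 starts. The core stood in 3 of the 9 windows (33.3%), against 10.2% of 32851 windows of the same length in the table. A match of these letters is a description and does not show binding, and enhancers further away were not searched. Hmox1, Gclc and Gsr had no window in the table.

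At 3 h of gentamicin, these genes did not move together in hair cells. Of the 10, 0 rose and 2 fell, Nqo1 and Srxn1, at an adjusted p under 0.05 (limma, Benjamini-Hochberg over all 16077 genes). In the same comparison 33.2% of all tested genes were called, 14.8% as higher and 18.4% as lower. The count of 2 lower among 10 was near that share, and such small counts do not set these genes apart from all genes. The criteria of the study (unadjusted p under 0.01 and a fold above 1.2) were applied to the limma values. By them 0 of the 10 passed in hair cells, against 27.5% of all genes. The study itself used another test, so such shares are not its own calls. The median log2 difference over the 10 genes was −0.07, against −0.09 over all tested genes. In non-hair cells 0 of the 10 were called, where 0.342% of all genes were, and 1 of the 10 had an unadjusted p under 0.05. The criteria of the study, again on limma values, called 0 of the 10 and 5.44% of all genes there. With 3 replicates a group an exact permutation test cannot go below p = 0.10, so it was not used to call genes.

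**Figure D1:**
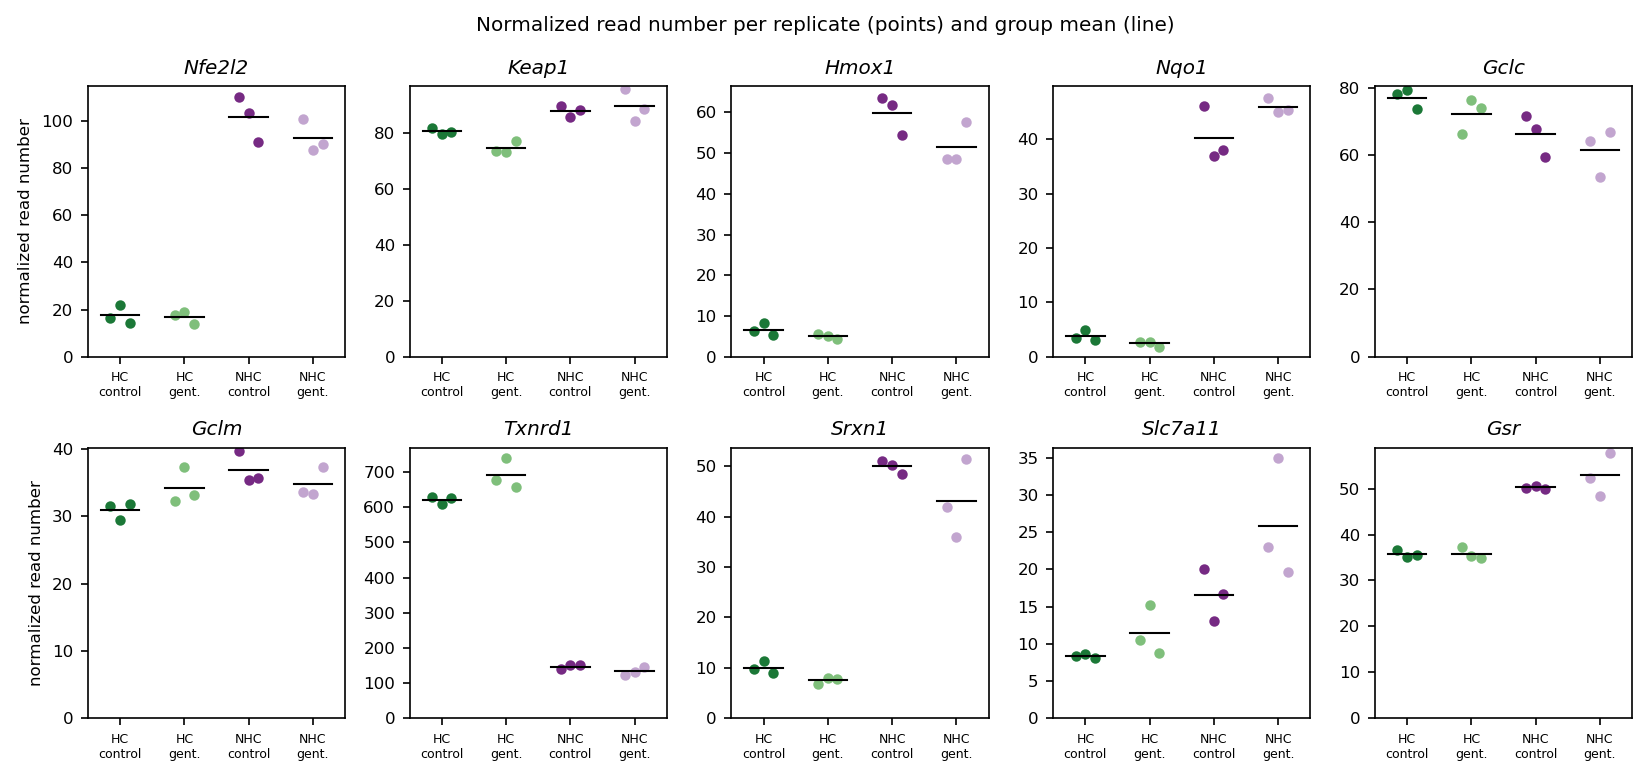
Normalized read number (y axis, from 0) of each of the 10 genes in every replicate (points) with the group mean (line), for control and gentamicin-treated hair cells (HC) and non-hair cells (NHC). Nfe2l2, Hmox1, Nqo1 and Srxn1 sit far lower in hair cells and Txnrd1 far higher, and the shifts with gentamicin are small beside those gaps.

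The factor and its inhibitor come first. Nfe2l2 (chr2:75675513-75704641, minus strand, mm10) read 16.5, 21.8 and 14.2 in control hair cells and 17.8, 19.0 and 13.8 after gentamicin. The hair cell values of the groups overlapped, and the log2 difference was −0.04 (95% interval −0.39 to 0.31, adjusted p = 0.866). In non-hair cells Nfe2l2 read 110, 103 and 90.9 in controls and 101, 87.6 and 90.1 with gentamicin, again with overlap (log2 difference −0.13, adjusted p = 0.724). Nfe2l2 mRNA in hair cells was therefore 5.86-fold below that of non-hair cells in controls (log2 difference −2.55 ± 0.16 SE, adjusted p = 5.52e-08), with no overlap, and 5.54-fold below it with gentamicin. Nrf2 is controlled mainly through protein stability, which these data do not measure.

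Keap1 (chr9:21229730-21239361, minus strand), the sensor that targets Nrf2 for degradation, had the smallest difference of the 10 between the control populations. Control hair cells read 82.0, 79.8 and 80.6, and treated hair cells read 73.8, 73.4 and 77.2. Every treated hair cell value lay below every control value, but the log2 difference of −0.11 (95% interval −0.24 to 0.02) did not pass the test (adjusted p = 0.166). Non-hair cells read 89.9, 85.9 and 88.3 in controls and 95.9, 84.5 and 88.6 with gentamicin, which overlapped. Control hair cells lay 1.09-fold below control non-hair cells without passing the test (adjusted p = 0.0787). This was −0.12 on the log2 scale and hung on the scaling, as it was −0.0009 with TMM factors (adjusted p = 0.991) and −0.15 with total reads (adjusted p = 0.0359). It was also called after subtraction of other-cell RNA (−0.31, adjusted p = 0.000797). Treated hair cells lay below treated non-hair cells by 0.26 on the log2 scale (adjusted p = 0.00166). That call was lost when TMM factors were used for scaling (log2 difference −0.13, adjusted p = 0.0752).

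Nqo1 (chr8:107388225-107403206, minus strand), the quinone reductase often used as the marker of Nrf2 activity, fell in treated hair cells. It read 3.43, 4.98 and 3.03 in control hair cells and 2.77, 2.80 and 1.86 in treated ones. The groups did not overlap, which held for 6 of the 10 genes and for 54.8% of all tested genes in this comparison. The log2 difference was −0.61 ± 0.20 (SE), with a 95% interval from −1.06 to −0.17 and an adjusted p of 0.0381. These values stand on 44 to 93 reads per control replicate and 24 to 43 per treated replicate, and with 0.1 in place of 1 as the added constant the difference was −0.90. Control replicate 2 held the highest Nqo1 value, and without it the difference was −0.41 and was not called (adjusted p = 0.151). The call was also lost without control replicate 1 (−0.67, adjusted p = 0.0602) or treated replicate 3 (−0.42, adjusted p = 0.129).

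In non-hair cells, Nqo1 was an order of magnitude more abundant and did not fall. Control non-hair cells read 46.1, 36.9 and 38.0 and treated ones read 47.5, 45.0 and 45.4, with overlap and a log2 difference of 0.20 (95% interval −0.25 to 0.64, adjusted p = 0.657). The hair cell response lay below the non-hair cell response by 0.81 on the log2 scale (95% interval −1.44 to −0.18), the widest gap among the 10 genes, and this difference of responses had an adjusted p of 0.0845 and was not called. Of the 10 genes, 0 passed this test of the difference (limma), against 13.4% of all genes, and 2, Nqo1 and Txnrd1, had an unadjusted p under 0.05.

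Srxn1 (chr2:152105516-152111376, plus strand), sulfiredoxin, which restores over-oxidized peroxiredoxins, was the other gene that fell in treated hair cells. It read 9.82, 11.3 and 8.97 in control hair cells and 6.90, 8.07 and 7.84 after gentamicin. The groups did not overlap, and the log2 difference was −0.40 ± 0.14 (SE), with a 95% interval from −0.70 to −0.10 and an adjusted p of 0.0425. The call was narrow, since dropping any 1 hair cell replicate ended it in 5 of 6 cases, with values from −0.48 to −0.31, and it held only without control replicate 3. Non-hair cells read 51.0, 50.3 and 48.5 in controls and 41.9, 36.0 and 51.5 with gentamicin, which overlapped (log2 difference −0.23, adjusted p = 0.418).

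Hmox1 (chr8:75093621-75100589, plus strand), haem oxygenase 1, breaks down haem and is among the genes most strongly induced by Nrf2 in many tissues. Hair cells read 6.30, 8.18 and 5.47 in controls and 5.54, 5.18 and 4.49 with gentamicin. The ranges overlapped by a small margin, and the log2 difference of −0.38 (95% interval −0.71 to −0.04) did not pass the test over all genes (adjusted p = 0.0772). Without control replicate 3 it was −0.51 and was called (adjusted p = 0.0342). Non-hair cells read 63.5, 61.8 and 54.4 in controls and 48.4, 48.5 and 57.7 with gentamicin, also with overlap (log2 difference −0.22, adjusted p = 0.491). No replicate of treated cells of either kind rose above the highest control replicate of its kind for Hmox1.

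The 3 genes just described and Nfe2l2 shared a pattern with the sum of the other-cell markers, though not with every marker list. Each was several times more abundant in non-hair cells, and each had its highest hair cell value in control replicate 2. Whether RNA of other cells had a part in the hair cell differences was not tested. Summed over the 22 other-cell markers, control hair cells reached 9.69%, 13.6% and 10.1% of the non-hair cell level, with the highest share in control replicate 2. In treated hair cells it was 5.40%, 5.98% and 6.75%. Most of the sum was mesenchyme, with 4969 to 6893 of 5849 to 7577 in control non-hair cells and 457 to 688 of 676 to 947 in control hair cells. Schwann cell markers summed to 193 to 230 in control hair cells and to 440 to 654 in control non-hair cells. At an adjusted p under 0.05 (limma), treated hair cells were lower for 2 of 6 mesenchyme markers (Col1a2 and Col3a1) and 2 of 4 endothelium markers. The same held for 1 of 4 Schwann cell, 1 of 3 melanocyte and 0 of 5 macrophage markers, beside 18.4% of all genes. The macrophage markers summed to between 3.27 and 4.30 in control and to between 4.04 and 5.39 in treated hair cells. Of 7 supporting cell markers, which are not in the list of 22, 4 were lower, and their summed level went from between 1155 and 1355 to between 562 and 1012. Control non-hair cells held 1042 to 1415 of these supporting cell markers, so they did not separate the sorted populations.

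**Figure D2:**
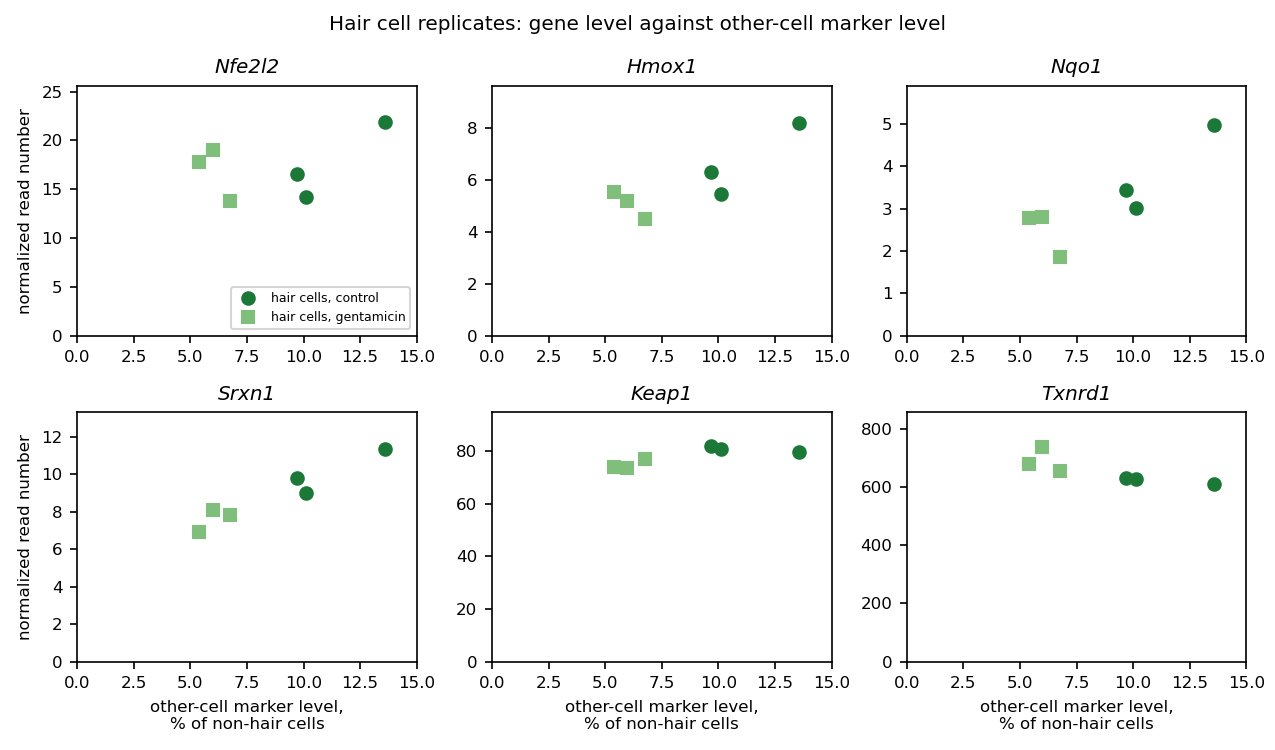
Normalized read number of 6 genes (y axis) in the 6 hair cell replicates against the summed level of 22 markers of other cell types as a percentage of the non-hair cell level (x axis), with circles for control and squares for gentamicin. All control replicates lie to the right of all treated ones, and control replicate 2, at 13.6%, carries the highest Nfe2l2, Hmox1, Nqo1 and Srxn1, whereas Keap1 and Txnrd1 show no such peak.

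Subtracting from each hair cell replicate that percentage of the mean non-hair cell value changed the sign or the call of each of these 4 genes. Nqo1 then fell to the floor of no reads in hair cells of both groups, so no difference could be measured. Srxn1 turned to a log2 difference of 0.14 (adjusted p = 0.522), and Nfe2l2 and Hmox1 turned to 0.85 (adjusted p = 0.0281) and 0.91 (adjusted p = 0.0271). The subtraction takes 1 percentage for all other cell types, although the lists differed in how much of the non-hair cell level hair cell libraries held, so these values mark how far the hair cell differences depend on it and are no second estimate. Without control replicate 2, Nfe2l2 had a log2 difference of 0.13 and Hmox1 one of −0.22, and neither was called.

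Of the glutathione enzymes among the 10, the 2 subunits that start its synthesis and the reductase that recycles it were not called in treated hair cells. Gclc (chr9:77754535-77794485, plus strand), the catalytic subunit of glutamate-cysteine ligase, read 78.2, 79.2 and 73.7 in control hair cells and 66.1, 76.2 and 73.8 in treated ones, which overlapped (log2 difference −0.10, adjusted p = 0.48). Gclm (chr3:122245557-122270732, plus strand), the modifier subunit of the same enzyme and the owner of the second window printed above, read 31.5, 29.4 and 31.9 in control hair cells and 32.3, 37.4 and 33.1 in treated ones. Every treated value lay above every control value, yet the log2 difference of 0.15 (95% interval −0.04 to 0.33) did not pass the test (adjusted p = 0.211).

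The 2 subunits differed in how they stood between the populations. Gclc read 71.7, 67.8 and 59.2 in control non-hair cells, all below the control hair cells, with a log2 difference of 0.22 that was not called (adjusted p = 0.0621). Gclm read 39.7, 35.4 and 35.6 there, all above the control hair cells, with a log2 difference of −0.25 (adjusted p = 0.0182). Both calls depended on scaling, because with TMM factors, which moved the median of all genes in this comparison from −0.12 to −0.01, Gclc became 0.34 (adjusted p = 0.0103) and Gclm −0.13 (adjusted p = 0.167). With gentamicin, non-hair cells read 64.1, 53.4 and 66.9 for Gclc and 33.6, 33.4 and 37.3 for Gclm, and neither differed from control non-hair cells beyond the spread of the replicates (adjusted p = 0.604 and 0.640).

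Gsr (chr8:33652523-33698163, plus strand), glutathione reductase, gave the smallest difference of the 10 in hair cells. Control hair cells read 36.7, 35.2 and 35.7 and treated ones 37.2, 35.2 and 34.9, with a log2 difference of −0.00 and a 95% interval from −0.16 to 0.16. Non-hair cells read 50.1, 50.7 and 49.9 in controls and 52.4, 48.4 and 57.8 with gentamicin, which overlapped (log2 difference 0.07, adjusted p = 0.655). In controls the hair cell level was 1.40-fold below the non-hair cell level (log2 difference −0.49 ± 0.07 SE, adjusted p = 7.07e-05).

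Slc7a11 (chr3:49892526-50443614, minus strand), the cystine transporter that feeds glutathione synthesis, had the largest upward differences of the 10 in both populations, and neither passed the test. Hair cells read 8.40, 8.64 and 8.08 in controls and 10.5, 15.3 and 8.73 with gentamicin, so all 3 treated values were above all controls. The log2 difference was 0.42 with a 95% interval from −0.12 to 0.96 (adjusted p = 0.215). Non-hair cells read 20.1, 13.0 and 16.7 in controls and 23.0, 35.0 and 19.6 with gentamicin, overlapping by a single value, with a log2 difference of 0.62 (95% interval 0.08 to 1.16, unadjusted p = 0.0287, adjusted p = 0.235). In both populations the treated replicate 2 stood above the other two, and without it the log2 difference was 0.19 in hair cells and 0.38 in non-hair cells.

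Txnrd1 (chr10:82833951-82897712, plus strand), cytosolic thioredoxin reductase, was much more abundant in hair cells than in non-hair cells. Control hair cells read 630, 609 and 626 and control non-hair cells read 139, 151 and 151. The gap of 4.23-fold (log2 difference 2.08 ± 0.08 SE, adjusted p = 7.07e-10) was the largest in favour of hair cells among the 10 genes, and the groups were far apart. After gentamicin, hair cells read 678, 739 and 657, all above the control values, with a log2 difference of 0.15 (95% interval −0.02 to 0.32, adjusted p = 0.151). Treated non-hair cells read 124, 131 and 145, partly below their controls (log2 difference −0.15, adjusted p = 0.355).

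The Txnrd1 responses of the 2 populations had opposite signs, and their difference was 0.30 on the log2 scale (95% interval 0.06 to 0.53) with an adjusted p of 0.092, so it was not called. When every replicate was scaled to the same total of reads instead, the Txnrd1 difference of responses became 0.37 (adjusted p = 0.0455), and both Txnrd1 (0.25, adjusted p = 0.0299) and Gclm (0.24, adjusted p = 0.0441) were called higher in treated hair cells while Nqo1 (−0.55, adjusted p = 0.0586) and Srxn1 (−0.31, adjusted p = 0.101) were not called. The same change of scaling moved the split of all called genes in hair cells from 2374 higher and 2958 lower to 3185 higher and 1959 lower. Txnrd1 encloses the gene Eid3 on the same strand, but Eid3 had only 7.42 in control and 6.61 in treated hair cells, so it could add little to the Txnrd1 value.

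**Figure D3:**
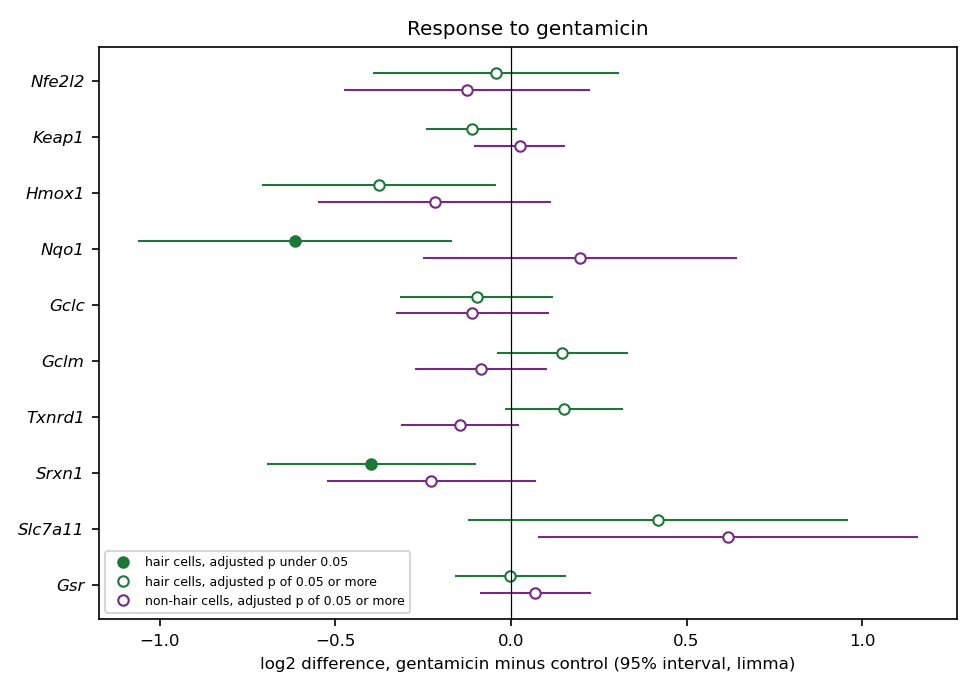
Log2 difference between gentamicin and control (x axis) with its 95% interval from limma for each of the 10 genes, in hair cells (green) and non-hair cells (purple), filled where the adjusted p was under 0.05. Nqo1 at −0.61 and Srxn1 at −0.40 in hair cells are the only filled points, and most intervals include 0.

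Between the sorted populations the differences of several genes were far wider than any seen with gentamicin. In controls 8 of the 10 genes were called, 1 higher in hair cells and 7 lower, where 74.1% of all genes were called, 31.9% higher and 42.2% lower. The replicates of the 2 populations did not overlap for any of the 10 genes, as for 79.2% of all genes. Nqo1 was 10.8-fold lower in hair cells (log2 difference −3.43 ± 0.20 SE), Hmox1 9.11-fold lower (−3.19 ± 0.15), Srxn1 5.00-fold lower (−2.32 ± 0.14) and Slc7a11 1.95-fold lower (−0.97 ± 0.25). The adjusted p of Nqo1, Hmox1 and Srxn1 was at most 3.76e-08, and that of Slc7a11 was 0.00391. With the added constant of 1 taken off both sides, control hair cells held 7.15% of the non-hair cell level of Nqo1, 9.60% of that of Hmox1, 16.5% of that of Nfe2l2 and 18.5% of that of Srxn1, where the other-cell markers stood at 9.69% to 13.6%. The part of other cells in these levels was not tested.

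With gentamicin in both populations, 9 of the 10 genes were called, 2 higher in hair cells and 7 lower, where 78.1% of all genes were called, 34.6% higher and 43.5% lower. The replicates did not overlap for 8 of the 10 genes, against 79% of all genes. Nqo1 was then 18.9-fold lower, Hmox1 10.2-fold lower, Srxn1 5.63-fold lower and Nfe2l2 5.54-fold lower in hair cells. Txnrd1 was 5.19-fold higher. Gclc was the second gene called higher (log2 difference 0.23, adjusted p = 0.0486), although its replicates overlapped, and Gclm, at −0.02, was not called.

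Divided by transcript length, which allows genes to be set side by side, the order of the 10 genes differed between the populations. The values that follow are levels per kilobase of the median coding transcript (GENCODE M21), as mean ± SD of 3 replicates. In control hair cells Txnrd1 led at 187 ± 3.42, followed by Gclm at 29.9 ± 1.35, Keap1 at 25.3 ± 0.36, Gclc at 22.2 ± 0.85 and Gsr at 13.0 ± 0.28. Nfe2l2, Hmox1, Srxn1, Nqo1 and Slc7a11 closed the order at 6.67 ± 1.58, 3.60 ± 0.89, 3.22 ± 0.43, 1.81 ± 0.66 and 1.27 ± 0.05. Hmox1 and Srxn1 lay within each other's spread. Slc7a11 lay within the spread of Nqo1, but Nqo1 lay above the narrow spread of Slc7a11.

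Control non-hair cells showed a much flatter order. Txnrd1 (44.0 ± 2.09), Nfe2l2 (40.6 ± 3.91), Hmox1 (37.5 ± 3.10) and Gclm (35.8 ± 2.43) followed each other within the larger SD of each neighbouring pair. Keap1 (27.6 ± 0.64) and Nqo1 (25.3 ± 3.24) came next. Gclc (19.1 ± 1.86), Gsr (18.4 ± 0.14) and Srxn1 (17.4 ± 0.45) were close to each other, and Slc7a11 was last at 2.68 ± 0.60. Keap1 thus exceeded Nfe2l2 in hair cells and the reverse held in non-hair cells on this scale. The place of Gclm rests on the length used, since its longest transcript has 5589 bases against a median of 1002 and would put it at 5.36 in control hair cells.

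**Figure D4:**
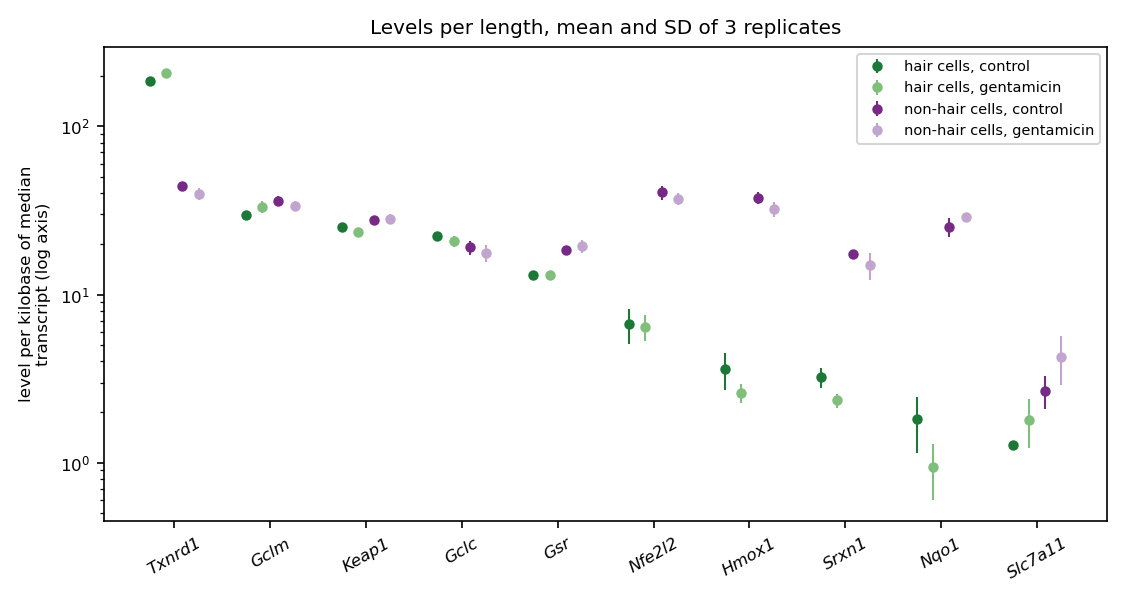
Level per kilobase of the median coding transcript (y axis, log scale) of the 10 genes in the 4 groups, with points for the mean and bars for the SD of 3 replicates. Txnrd1 stands alone at 187 in control hair cells, and Nfe2l2, Hmox1, Srxn1 and Nqo1 lie several-fold lower in hair cells than in non-hair cells.

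Over the 12 replicates, the genes whose log2 values ran most like Nfe2l2 were Rbpms (Pearson r = 0.997), Dlc1 (r = 0.995) and BC017612 (r = 0.995), all low in hair cells. Among the targets, Hmox1 came seventh of all tested genes at r = 0.994 and Nqo1 followed at 0.991, while Txnrd1 ran the other way at −0.985. These coefficients describe the split between the sorted populations that all these replicates share. Once the mean of each group was removed, r with Nfe2l2 over the 12 replicates remained 0.939 for Nqo1 and 0.824 for Hmox1. It was 0.393 for Srxn1 and −0.0656 for Txnrd1. Dlc1, Rbpms and BC017612 kept 0.945, 0.885 and 0.848 in the same way, so values this high were not particular to the targets.

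The wider Nrf2 pathway held 56 further genes in 6 lists, all of which passed the read minimum. The lists were written with earlier results of these data known, so their counts and medians beside those of all genes are descriptive. In treated hair cells 16 of the 56 were called, 3 higher and 13 lower, beside the 33.2% of all genes called. Their median log2 difference was −0.21, against −0.09 for all genes. In non-hair cells 0 of the 56 were called (limma), beside 0.342% of all genes. An unadjusted p under 0.05 was seen for 10 of the 56 and for 2753 of the 16077 genes there. The criteria of the study, on limma values, were met by 3 of the 56 and by 5.44% of all genes there.

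The partners and controllers of Nrf2 held the largest called hair cell changes, with 3 of 11 higher and 3 lower, beside 14.8% and 18.4% of all genes. Mafg, a small Maf partner that Nrf2 needs to bind DNA, read 33.7, 37.0 and 33.6 in control and 16.9, 17.4 and 20.7 in treated hair cells, with no overlap (log2 difference −0.93 ± 0.09 SE, adjusted p = 6.3e-05). Treated non-hair cells were also lower for Mafg with no overlap, by a smaller log2 difference of −0.29. That difference met the criteria of the study on limma values but was not called (limma, adjusted p = 0.15). Mafk, another small Maf, read 39.5, 43.3 and 44.5 in control and 63.1, 86.5 and 66.8 in treated hair cells, also with no overlap and in the opposite direction (0.75 ± 0.20, adjusted p = 0.0131). Maff, the remaining small Maf of the list, was lower in treated hair cells with no overlap but was not called (log2 difference −0.73, limma adjusted p = 0.0716). The called genes of this family thus moved apart in the same libraries.

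Bach1, a repressor that competes with Nrf2 at its elements and holds Hmox1 down, read 29.7, 38.1 and 34.0 in control and 21.1, 20.8 and 23.9 in treated hair cells (log2 difference −0.62 ± 0.09, adjusted p = 0.000699). Bach2, its relative, fell by 0.54 on the log2 scale (adjusted p = 0.0104). Cul3, the scaffold of the ligase that Keap1 works through, read 114, 103 and 122 in control and 162, 185 and 162 in treated hair cells, a rise of 0.58 ± 0.10 (adjusted p = 0.00134). Btrc, an F-box protein that can direct Nrf2 to degradation independently of Keap1, rose by 0.40 (adjusted p = 0.008). The drop of Mafg and Bach1 and the rise of Mafk and Cul3 were still called without control hair cell replicate 2, at −0.88, −0.54, 0.77 and 0.52, and after subtraction of other-cell RNA, at −0.89, −0.50, 0.82 and 0.69. Without treated hair cell replicate 2 Mafk was at 0.62 and was not called (adjusted p = 0.0591). The hair cell and non-hair cell responses of all 4 differed by the test of the difference itself, but of the 12 fits that each dropped 1 replicate this held in 12 for Mafg, 6 for Mafk, 5 for Cul3 and 2 for Bach1.

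Genes of glutathione synthesis and use gave 4 of 14 lower and 0 higher in treated hair cells, beside 18.4% and 14.8% of all genes. These were the glutathione transferases Gstp1 (log2 difference −0.45, adjusted p = 0.0207) and Gstm1 (−0.40, adjusted p = 0.00367), the glutaredoxin Glrx (−0.42, adjusted p = 0.00538) and the glutathione synthetase Gss (−0.31, adjusted p = 0.0474). Gstm1 was rich in non-hair cells, and after the subtraction of other-cell RNA it was at −0.12 and not called. In the thioredoxin and peroxiredoxin list only Sesn2, a stress-induced sestrin, was called among 7, at −0.70 (adjusted p = 0.00764).

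Beside the same 18.4% of all genes, the NADPH supply list gave 2 of 6 lower. These were the pentose phosphate enzymes Tkt (−0.36, adjusted p = 0.00585) and G6pdx (−0.31, adjusted p = 0.0424). The iron and haem list gave 3 of 7 lower, the biliverdin reductase Blvrb (−0.68, adjusted p = 0.0226) and the ferritin chains Ftl1 (−0.43, adjusted p = 0.0321) and Fth1 (−0.39, adjusted p = 0.00629). Without control hair cell replicate 2, Gss, Gstp1, G6pdx, Ftl1 and Blvrb were no longer called, and their values ran from −0.69 to −0.28. Of the 6 fits that dropped 1 hair cell replicate, Ftl1 was called in 0, Gss and G6pdx in 1 each, Gstp1 in 2 and Blvrb in 3. Of 11 genes for export and detoxification 0 were called (limma), beside 33.2% of all genes. An unadjusted p under 0.05 was seen for 2 of the 11 and for 7104 of the 16077 genes.

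**Figure D5:**
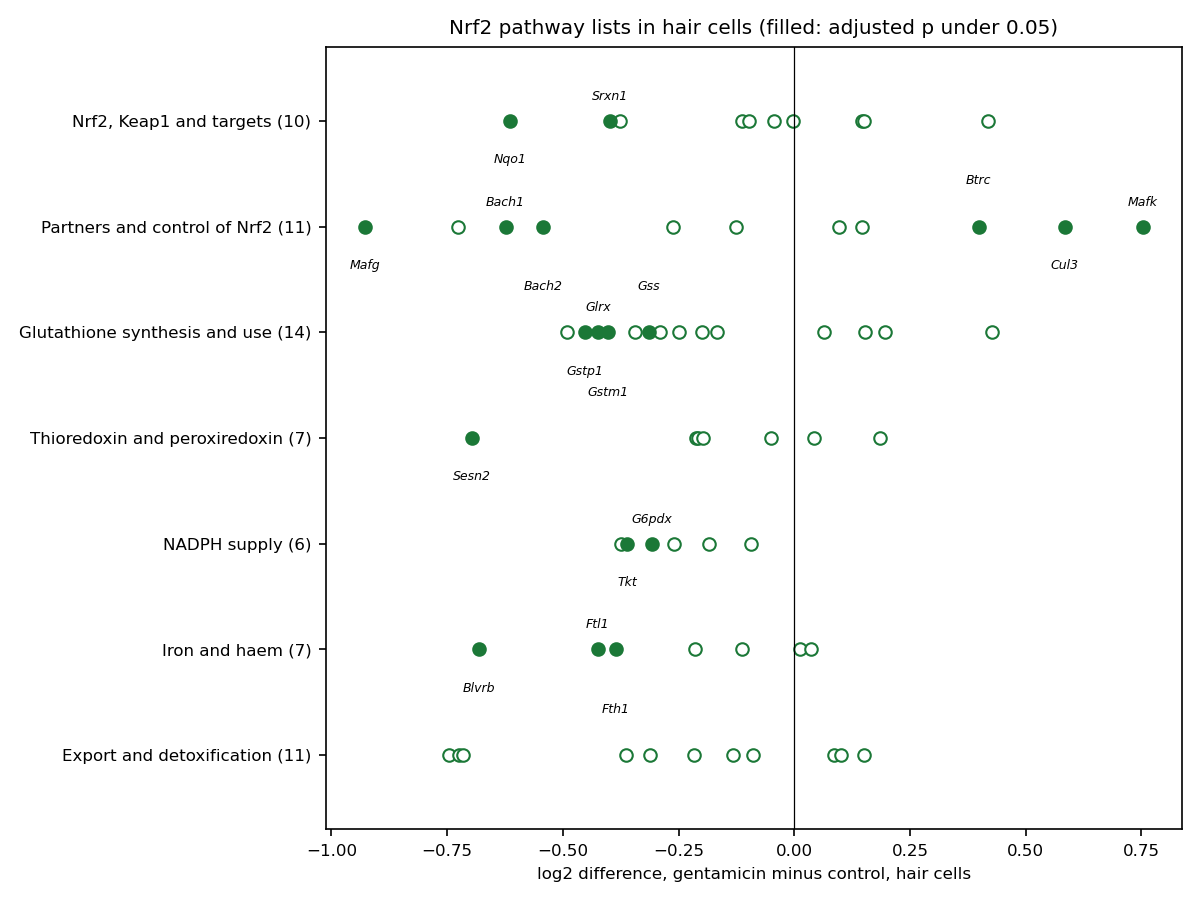
Log2 difference between treated and control hair cells (x axis) for the 10 genes and the 6 wider lists (one row each, number of genes in brackets), with filled points and names for genes at an adjusted p under 0.05. The 3 filled points to the right of 0, Btrc, Cul3 and Mafk, all belong to the partners and controllers of Nrf2, and 15 filled points lie to the left.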

How the data were processed

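RNA from sorted cells was sequenced with 50-base reads and aligned to mm10 with TopHat2, per the submitters' processing notes. The deposited tables give, for each of 4 samples, a normalized score per gene in 3 biological replicate columns, and no counts. The authors describe an RPKM scale, but 1 common step per replicate served all genes, so the scores hold reads scaled between replicates, plus 1, with no division by length. Dividing by that step returned 22400402 to 28151968 reads per replicate. Between 77.4% and 78.7% of low values (up to 20 reads) were whole within 0.02 read.

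Genes with at least 100 recovered reads over 12 replicates were tested on log2 scores with limma 3.58.1 in R 4.3.3, all 4 groups in 1 model with a variance trend, two-sided, Benjamini-Hochberg adjusted over 16077 genes and called under 0.05. Fold changes are on the scale of score (reads plus 1) and understate those of low genes. The count of genes whose replicates did not overlap is descriptive. The script was tested on simulated data.

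The 10 genes were picked by symbol and not by their values. They, the 6 wider lists and the marker lists were all chosen with earlier results of these data known. All 10 genes are named, with called genes of each wider list, the small Maf gene Maff and the 3 genes most correlated with Nfe2l2. Column numbers paired control hair cells with control non-hair cells (correlation of deviations 0.2 to 0.316 for same-numbered columns), but not treated with control hair cells (0.0369 to 0.0523). The same correlation ran from −0.232 to 0.683 between control and treated non-hair cells. It ran from −0.0386 to 0.377 between treated hair cells and treated non-hair cells. The main fit did not use this pairing, so the p-values between populations ignore it, and the replicate block was an alternative. Alternatives were TMM or total-read scaling, an offset of 0.1, other read minimums, a replicate block, 2-group fits and left-out replicates. Further ones were voom weights, the study criteria on limma values (p under 0.01 and fold above 1.2) and subtraction of other-cell RNA. The marker Hbb-bs was not analysed here.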

Additional observations from a re-analysis of the deposited data

Results flagged for a closer look

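None of the 10 genes had responses that differed between hair cells and non-hair cells at an adjusted p under 0.05 (limma), but 10 of the 56 wider pathway genes did, beside 13.4% of all genes. Values are the hair cell response minus the non-hair cell response on the log2 scale. Among the partners and controllers of Nrf2, the difference was 1.08 for Mafk, 0.54 for Cul3, −0.63 for Mafg and −0.47 for Bach1. All 4 had been called in the hair cell comparison. It was −0.56 for Gss, the glutathione synthetase.

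All 4 genes of the NADPH supply list that passed this test responded lower in hair cells. The values were −0.55 for Idh1, −0.53 for Pgd, −0.51 for G6pdx and −0.44 for Tkt. For Idh1 and Pgd the hair cell response alone was not called (−0.26 and −0.18), and neither was the non-hair cell response (0.29 and 0.35). Txnip, the inhibitor of thioredoxin, had a difference of 0.98, with 0.04 in hair cells and −0.94 in non-hair cells, where it read 478, 589 and 500.5 in controls and 221, 262 and 342 with gentamicin. That fall was not called (adjusted p = 0.0623), although the replicates did not overlap. Of the 10 wider pathway genes called here, Mafg alone kept its call in all 21 alternatives. Of the 12 fits that left out 1 replicate, the call held in 12 for Mafg and Pgd, 8 for Idh1, 6 for Mafk, 5 for Cul3 and Tkt, 4 for Txnip and G6pdx, and 2 for Bach1 and Gss.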

How the results depend on the processing

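The count of 2 called genes among the 10 in hair cells was the least stable result. It was 0 with no read minimum, with only the 2 groups compared, with voom weights and with the study criteria, 1 with the replicate block, and 0 to 3 over the fits that each left out 1 replicate. It stayed at 2 with scaling by total reads and with other-cell RNA subtracted, but those were other genes (Gclm and Txnrd1, and Nfe2l2 and Hmox1). Nqo1 was called in 3 and Srxn1 in 1 of the 6 fits that left out a hair cell replicate. With the replicate block Srxn1 had an adjusted p of 0.058 and Nqo1 one of 0.0263. The numbers did not pair treated with control hair cells.

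The count for the difference of responses was 1 with scaling by total reads and 0 to 1 with replicates left out. In hair cells Nfe2l2 turned to 0.048 and Gsr to 0.092 with scaling by total reads, Gsr to 0.0013 with TMM, and Nfe2l2, Hmox1, Srxn1 and Gsr to 0.85, 0.91, 0.14 and 0.11 with other-cell RNA subtracted. That subtraction turned the difference of responses to 1.12 for Hmox1, 0.37 for Srxn1 and 0.036 for Gsr. Treated hair cells against treated non-hair cells gave Gclm 0.10 with TMM and 0.025 with total reads.

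Leaving out single replicates gave −0.18 to 0.13 for Nfe2l2 and −0.031 to 0.015 for Gsr in hair cells, −0.025 to 0.066 for Keap1 in non-hair cells, and −0.086 to 0.031 for Gclm between treated populations. For the difference of responses it gave −0.059 to 0.25 for Nfe2l2, −0.29 to 0.0015 for Hmox1, −0.086 to 0.0903 for Gclc and −0.42 to 0.0402 for Slc7a11. Of all genes in non-hair cells, 55 were called, and 114 with total reads, 11 with the replicate block, 0 with only the 2 groups compared, 875 with the study criteria and 2 to 159 with replicates left out. For the wider lists, 16 called genes in hair cells became 25 with only the 2 groups compared, and 10 for the difference of responses became 5 with total reads or with subtraction. Called between hair cells and non-hair cells in every alternative were Nfe2l2, Hmox1, Nqo1, Txnrd1, Srxn1, Slc7a11 and Gsr. The cause of these changes was not tested. Depth limits Nqo1 in hair cells, at 24 to 93 reads per replicate.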
